A study of Homo sapiens with 18 samples.

Results

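Newly made polyadenylated RNA was compared between the nucleus and the cytoplasm of untreated breast cancer cells. The comparison used 6 of the 18 libraries of the series, 3 labelled DMSO nuclear and 3 labelled DMSO cytoplasmic, chosen by their labels alone. All libraries came from MDA-MB-453, an established human breast cancer line of the luminal apocrine kind. The series asked how a 3 h exposure to the BET degrader JQ1-VHL changes new RNA in the whole cell and in both fractions, and DMSO is the solvent control of that design. According to the protocols, cells were labelled with 0.1 mM 4-thiouridine over the final 60 min, a step worded for drug-treated cells and taken here to hold for DMSO as well. Cells were opened with 1 mg/ml digitonin; the supernatant was kept as cytoplasm and the pellet as nuclei. All 18 libraries, controls included, carried Drosophila S2 cells added by cell count and ERCC RNA added in proportion to RNA mass. Each fraction has 1 library in each of batches 1, 2 and 3, and no label says that the batches were separate cultures, so a p-value here reflects the spread of these libraries and no more.

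A transcript made within the labelling hour is transcribed, spliced, cleaved and polyadenylated in the nucleus, packaged with export proteins and passed through nuclear pores. Some transcripts complete this path quickly, while others are known to wait in the nucleus, among them mRNAs with detained introns and many long noncoding RNAs. In the cytoplasm, mRNAs that encode secreted and membrane proteins are translated on ribosomes docked at the endoplasmic reticulum (ER), whose membrane is continuous with the nuclear envelope. Digitonin opens the cholesterol-rich plasma membrane and leaves ER membranes largely intact, so RNA held at the ER can stay with the pellet. Whether new mRNA bound to the ER pelleted with the nuclei was not tested, and "nuclear" below means the pellet.

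New RNA was counted as reads with a T-to-C change, the mark that 4-thiouridine leaves after treatment with iodoacetamide. The deposited values divide these counts by an ERCC factor per library. Values were summed over a gene's intervals and divided by a median-of-ratios factor per library, which sets the typical gene level with the other libraries; the results are called rescaled units. A signed difference is the log2 nuclear minus the log2 cytoplasmic value, and a gene was called when limma gave a Benjamini-Hochberg adjusted p below 0.05. No library without 4-thiouridine is part of the series, so the share of T-to-C reads from sequence variants or errors was not tested. The nuclear libraries held 4.55 to 5.93 M T-to-C reads (M stands for 1e06) and the cytoplasmic libraries 3.26 to 6.77 M. Cytoplasmic library 3 stood apart: it had the most reads and also the most intervals at 0, 29.9%, against 15.5% and 22.3% in the other cytoplasmic libraries and at most 1.93% in the nuclear ones. Of 15 luminal markers tested, 8 were called higher in the nucleus (53.3%, against 31% of all genes tested). The cytoplasm was higher in 4 (26.7%, against 26.6%). Of the markers of basal or mesenchymal, blood, liver and neural cells, 2 were abundant enough to test. COL1A1 had means of 358 rescaled units in the nucleus and 421 in the cytoplasm, and ALB had 32.6 and 10.2. Neither was called.

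Summed over all genes on the ERCC scale, new RNA came to 3.25 ± 1.40 M units in the nuclear libraries and 9.69 ± 8.48 M in the cytoplasmic libraries (SD, n = 3 each). The same-batch ratios of nuclear to cytoplasmic sums were 0.563, 1.42 and 0.125, and an exact two-sided permutation test gave p = 0.4. The difference in summed new RNA was smaller than the spread between libraries, and its scale rests on RNA mass and not on cell number. More RNA per cell and recovery from more cells cannot be told apart in these bulk libraries.

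Of 12755 gene IDs, 10494 had a mean of at least 10 units over the 6 libraries and were tested. In all, 6042 genes (57.6%) were called, 6617 (63.1%) at an unadjusted p below 0.05. The calls were 3250 higher in the nucleus (31% of the genes tested) and 2792 higher in the cytoplasm (26.6%). Fractions did not overlap, all 3 libraries of one above all 3 of the other, in 3940 genes higher in the nucleus (37.5%) and 3153 higher in the cytoplasm (30%). The differences were wide: 3015 nuclear and 2381 cytoplasmic calls exceeded 2-fold, and 235 and 51 exceeded 16-fold. From the 5th to the 95th percentile, genes ran from -2.65 to 3.45 on the log2 scale, around a median of 0.32. Of the called genes, 6029 had the same sign in all 3 same-batch pairs. In 85.2% of the called genes the share of reads in the DMSO total libraries lay between those of the fractions.

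The scale decides how many genes lie on each side. On the ERCC scale as deposited, where the cytoplasmic libraries differed widely in their sums, the median moved up by 0.33 and 610 genes (5.81%) were called nuclear against 69 (0.658%) cytoplasmic. As CPM, that is scaled to one total per library, the median moved up by 1.29 and the calls became 7109 (67.7%) and 921 (8.78%). Both scales moved the differences toward the nucleus, so genes called nuclear could hardly change sign, and none did. This is no check of those calls. No gene called cytoplasmic changed sign on the ERCC scale, where the shift was only 0.33. As CPM, 1077 of the genes called cytoplasmic did change sign. Differences are therefore relative to the typical gene, and the order of genes and groups along the axis is what follows. Among the tested genes, 3646 overlap a coding gene and, with the strand counted not given in the sources used here, their reads cannot be told apart from those of the partner; of the genes named below these include RPL4, EEF1D, EIF5A, EIF3G, ALDOA, ATP5F1E, CFL1, HSP90B1, SREBF1 and SRRM2. Of 126 called genes given with a difference below, 43 were also called on the ERCC scale.

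**Figure D1:**
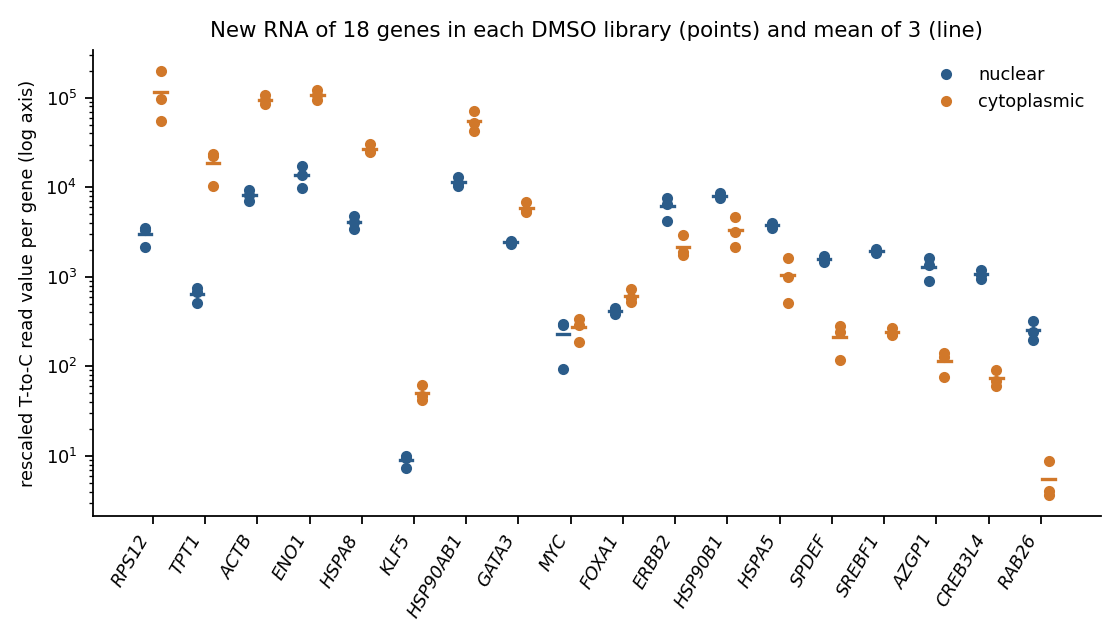
Rescaled T-to-C values (vertical log axis) of 18 genes in the 3 nuclear and 3 cytoplasmic DMSO libraries; points are libraries and short lines are means of 3. The fractions are separated at both ends, with RPS12 lowest and RAB26 highest in the nucleus relative to the cytoplasm, and overlap for MYC.

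Messages for the protein synthesis machinery stood at the cytoplasmic end. Of 65 ribosomal protein genes tested, 52 were called higher in the cytoplasm and 5 higher in the nucleus, with a median difference of -2.72 against 0.32 over all genes. Together they took 2.47% ± 0.308 of the nuclear and 12.8% ± 3.18 of the cytoplasmic values (SD, n = 3 each), a 5.21-fold difference (exact two-sided permutation test, p = 0.1, which is the minimum for 3 against 3). RPS12, a protein of the small ribosomal subunit, read 2133, 3376 and 3506 in the nuclear libraries and 55317, 96588 and 197493 in the cytoplasmic libraries. Every cytoplasmic library lay above every nuclear one, and the means differed 38.8-fold (log2 difference -5.12 ± 0.44, adjusted p = 5.60e-05). RPS6, a small-subunit protein and a target of growth signalling, read 528, 712 and 684 in the nuclear libraries and 10113, 13908 and 26179 in the cytoplasmic libraries (log2 difference -4.60 ± 0.34, adjusted p = 4.28e-05). RPL11, a large-subunit protein that also binds MDM2, read 745, 1241 and 1260 in the nuclear libraries and 12778, 18739 and 39496 in the cytoplasmic libraries (log2 difference -4.33 ± 0.41, adjusted p = 8.08e-05).

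The abundant large-subunit mRNAs RPL3 and RPL4 differed by -3.65 and -3.76, and the small-subunit mRNAs RPS3 and RPS19 by -3.96 and -4.03. All 4 were separated between the fractions without overlap. The 5 ribosomal protein genes on the nuclear side were RPL21 at 2.35, RPL41 at 2.29, RPS25 at 1.45, RPL10A at 0.88 and RPL9 at 0.87. The last 2 calls were weak: that of RPL9 was lost with the batch as a replicate block (adjusted p = 0.0558, limma) and without any library but cytoplasmic 3, and that of RPL10A without nuclear 1 or 2 or cytoplasmic 1 (adjusted p from 0.0505 to 0.0727). RPL41, which encodes the smallest ribosomal protein, had 1 interval in the table and read 247, 143 and 138 in the nuclear libraries and 54.2, 22.1 and 32.1 in the cytoplasmic libraries. Ribosomal protein genes have many near-identical pseudogenes, and how reads with several matches were counted is not given in the sources used here.

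Ribosomal protein mRNAs are known for starting with a C followed by a run of pyrimidines, the element through which their translation is regulated. The start windows of the leading genes are shown to let that start be seen beside the differences. Each is 30 bases from RefSeq on build GRCh38.p14, from 10 before to 20 from the start site on, 5′ to 3′ on the gene's own strand, with the first 5 transcribed bases in capitals. RPS12, RPS6 and TPT1 were among the lowest in the nucleus, RPL11 is a ribosomal protein gene without that start in this table, and ZNF302, TRAIP and MCOLN1 were among the highest in the nucleus.
RPS12 (chr6:132814559-132814588, plus strand, log2 difference -5.12): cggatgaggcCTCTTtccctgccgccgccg
RPS6 (chr9:19380217-19380246, minus strand, log2 difference -4.60): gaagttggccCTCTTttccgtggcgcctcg
TPT1 (chr13:45341164-45341193, minus strand, log2 difference -4.79): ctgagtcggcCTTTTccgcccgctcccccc
RPL11 (chr1:23691769-23691798, plus strand, log2 difference -4.33): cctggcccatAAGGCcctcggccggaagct
ZNF302 (chr19:34677668-34677697, plus strand, log2 difference 5.05): ggtgcactggGTCAGtcccgcgatagcttc
TRAIP (chr3:49856545-49856574, minus strand, log2 difference 5.11): ccgctccaggAAGTCgtgctgcggagccaa
MCOLN1 (chr19:7522614-7522643, plus strand, log2 difference 5.09): tgaccgaggcACAGAtcagctgatgccgga

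A start of C and 4 further pyrimidines, searched only at the annotated start and on the transcribed strand, was present in 36 of the 52 ribosomal protein genes with a promoter in the table (69.2%) and in 4.07% of all 35116 promoters. Over all tested genes, the 471 with this start had a median difference of -0.16 and the 7703 without it 0.29. Without ribosomal protein and translation factor genes the medians were -0.03 over 426 genes and 0.29 over 7674. The start therefore went with a small shift outside the ribosomal protein genes.

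TPT1, the translationally controlled tumour protein, read 507, 679 and 742 in the nuclear libraries and 10256, 22579 and 23638 in the cytoplasmic libraries (log2 difference -4.79 ± 0.34, adjusted p = 4.28e-05). FTL, the light chain of the iron store ferritin, read 179, 446 and 432 in the nuclear libraries and 5116, 9408 and 20995 in the cytoplasmic libraries (log2 difference -4.94 ± 0.53, adjusted p = 1.32e-04). SH3BGRL, a small thioredoxin-fold protein, differed by -4.85, and AP3S1, a subunit of the AP-3 adaptor complex whose gene overlaps ATG12, by -4.67. For each of these 4 genes the fractions did not overlap, and each kept its call on the ERCC scale. Several unnamed gene IDs also stood at this end, among them ENSG00000259387 at -6.22 and ENSG00000205275 at -5.40; without nuclear library 2 they stood at -8.26 and -7.04 and without nuclear library 1 at -5.11 and -4.49. The call of ENSG00000205275 was not made by DESeq2 (adjusted p = 0.145). In 7 such IDs the cytoplasmic value per interval was the same, 17.4 units, so they are taken to share reads and not counted as separate genes.

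Translation factors followed the ribosomal proteins, with 22 of 31 called cytoplasmic, 4 called nuclear and a median of -1.60. EIF5A, which helps ribosomes past proline-rich stretches, read 610.2, 864 and 713 in the nuclear libraries and 8754, 9439 and 15796 in the cytoplasmic libraries (log2 difference -3.92 ± 0.28, adjusted p = 4.28e-05). The elongation factor subunit EEF1D differed by -3.13, the initiation factor subunit EIF3E by -3.65 and the poly(A)-binding protein PABPC1 by -2.62. The 4 on the nuclear side were the initiation factors EIF3G at 1.80, EIF3K at 1.68, EIF3B at 1.54 and EIF6 at 0.97. The call of EIF6 was lost without any library but cytoplasmic 1 (adjusted p from 0.0620 to 0.166) and by edgeR (0.0542). EIF3G read 233, 162 and 163 in the nuclear libraries and 49.2, 31.0 and 91.0 in the cytoplasmic libraries, without overlap. Subunits of 1 complex therefore lay on both sides.

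Glycolysis was as one-sided. Of 15 glycolytic enzyme genes, 13 were called cytoplasmic and 2 nuclear, with a median of -2.24 and a share of 1.55% ± 0.399 in the nucleus against 4.26% ± 0.543 in the cytoplasm (exact permutation p = 0.1). GAPDH read 2349, 3727 and 3142 in the nuclear libraries and 24669, 32477 and 33384 in the cytoplasmic libraries (log2 difference -3.31 ± 0.25, adjusted p = 4.34e-05). ALDOA, ENO1 and LDHA, which make aldolase, enolase and lactate dehydrogenase, differed by -3.13, -3.03 and -3.11. The 2 exceptions were ENO2, the neuronal enolase, and PGAM1, a phosphoglycerate mutase. ENO2 read 178, 157 and 104 in the nuclear libraries and 14.8, 6.64 and 5.35 in the cytoplasmic libraries (log2 difference 3.98 ± 0.48, adjusted p = 2.26e-04) and overlaps LRRC23. ENO1 and ENO2, isozymes of 1 step, thus lay at -3.03 and 3.98. PGAM1 read 154, 106 and 99.0 in the nuclear libraries and 48.0, 35.4 and 13.4 in the cytoplasmic libraries (log2 difference 2.01 ± 0.49, adjusted p = 0.00788), and without cytoplasmic library 3 it stood at 1.37.

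Cytosolic and mitochondrial chaperone genes, a list without the ER chaperones described below, had no member called nuclear: by limma 20 of 26 were cytoplasmic and 0 nuclear, with a median of -2.41. At an unadjusted p below 0.05, and by edgeR and by DESeq2, the nuclear count was also 0. Their highest member stood at 0.56. HSPB1, a small heat shock protein, read 84.7, 174 and 129 in the nuclear libraries and 1173, 1541 and 3612 in the cytoplasmic libraries (log2 difference -3.91 ± 0.43, adjusted p = 1.53e-04). TCP1, a subunit of the ring chaperone that folds actin and tubulin, differed by -3.36; it overlaps ACAT2. Of 24 cytoskeleton genes, 16 were called cytoplasmic and 4 nuclear, with a median of -1.86. ACTB, cytoplasmic actin, read 7089, 9221 and 8230 in the nuclear libraries and 84851, 95040 and 106580 in the cytoplasmic libraries (log2 difference -3.55 ± 0.22, adjusted p = 4.28e-05). CFL1, the actin-severing cofilin, differed by -4.40, and the luminal keratins KRT8 and KRT18, which overlap each other, by -2.98 and -3.31. The 4 cytoskeleton genes on the nuclear side were TUBB6 at 3.71, TPM1 at 1.59, MYL6 at 1.42 and ACTN1 at 1.23; without nuclear library 3 the adjusted p of MYL6 was 0.0680.

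Proteasome subunits and mitochondrial proteins made in the cytosol were more mixed. Of 25 proteasome genes, 13 were called cytoplasmic (52%, against 26.6% of all genes tested). The nucleus was higher in 7 (28%, near the 31% of all genes), and the median was -1.80. PSMC6, an ATPase of the base, stood at -3.10 and PSMD13, a lid subunit that overlaps SIRT3, at 2.42. Of 57 mitochondrial ribosome genes, 33 were cytoplasmic (57.9%) and 6 nuclear (10.5%), with a median of -1.33, from MRPL3 at -3.91 to MRPS31 at 2.04. Of 58 oxidative phosphorylation genes, 26 were cytoplasmic (44.8%) and 11 nuclear (19.0%), with a median of -0.61. CYCS, cytochrome c, read 72.7, 98.9 and 80.5 in the nuclear libraries and 1417, 1681 and 2698 in the cytoplasmic libraries (log2 difference -4.46 ± 0.28, adjusted p = 4.28e-05). UQCRH of complex III differed by -4.10 and ATP5F1E of the ATP synthase by -4.33, while NDUFB10 of complex I stood at 2.82. As CPM, the medians of the mitochondrial ribosome and oxidative phosphorylation lists turned positive, at 0.03 and 0.82.

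**Figure D2:**
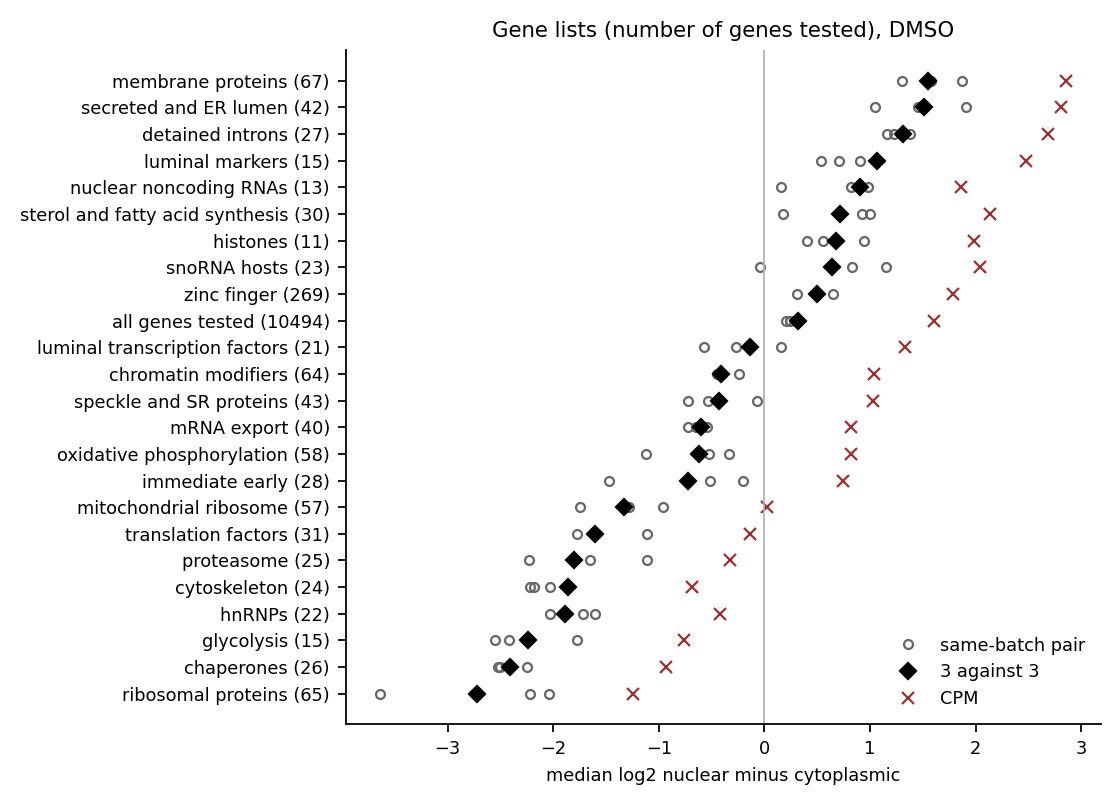
Median log2 nuclear minus cytoplasmic difference (horizontal axis) of 23 gene lists and of all genes, with the number of genes tested in brackets; diamonds are 3 libraries against 3, circles the 3 same-batch pairs and crosses CPM. Ribosomal proteins lie lowest at -2.72 and membrane proteins highest at 1.55, and the crosses lie further right in every row.

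Messages of the secretory pathway lay at the other end. Of 42 genes for secreted and ER lumen proteins, 29 were called nuclear and 1 cytoplasmic, with a median of 1.51. Of 67 genes for receptors, adhesion molecules and other integral membrane proteins, 44 were called nuclear and 2 cytoplasmic, with a median of 1.55. The background was 31% and 26.6% over all genes. Secreted and ER lumen genes took 1.23%, 1.28% and 1.36% of the nuclear libraries and 0.284%, 0.124% and 0.209% of the cytoplasmic libraries. Membrane protein genes took 2.06%, 2.48% and 2.90% of the nuclear and 0.653%, 0.308% and 0.491% of the cytoplasmic libraries. The ratios of the mean shares were 6.28 and 5.12, each with an exact permutation p of 0.1. As CPM, the medians of the 2 lists were 2.81 and 2.86, against 1.60 over all genes. No library of one fraction overlapped the other fraction in either share.

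**Figure D3:**
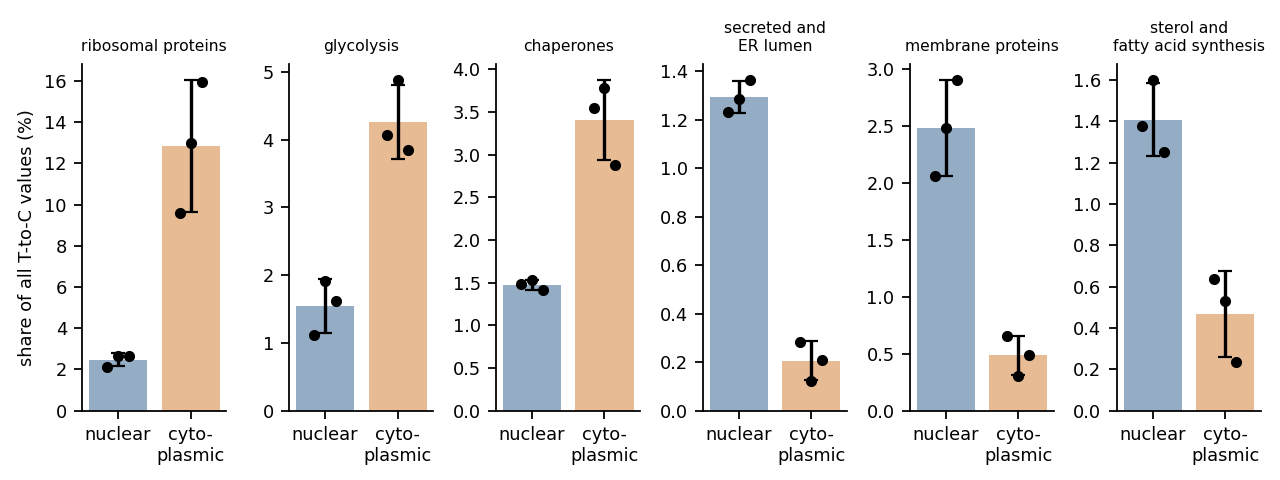
Share of all T-to-C values taken by 6 gene lists (vertical axes in percent, each starting at 0) in the nuclear and cytoplasmic DMSO libraries; bars are means of 3, whiskers SD and points libraries. Ribosomal protein, glycolysis and chaperone genes take larger shares of the cytoplasm, and secreted, membrane and sterol synthesis genes larger shares of the nucleus, with no overlap in any of the 6. As CPM, the median over all tested genes was also nuclear, at a log2 difference of 1.60.

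AZGP1, a zinc-binding glycoprotein secreted by apocrine cells (GRCh38, chr7:99966720-99976157), read 899.8, 1346 and 1639 in the nuclear libraries and 140.4, 126 and 76.2 in the cytoplasmic libraries. The lowest nuclear library was above the highest cytoplasmic one, and the means differed 11.3-fold (log2 difference 3.50 ± 0.31, adjusted p = 6.21e-05). GANAB, the glucosidase that trims new N-glycans in the ER, read 657, 708 and 681 in the nuclear libraries and 80.0, 77.5 and 37.5 in the cytoplasmic libraries (log2 difference 3.45 ± 0.31, adjusted p = 6.60e-05). HSPA5, the ER chaperone BiP, read 3530, 3974 and 3832 in the nuclear libraries and 1644, 514 and 997 in the cytoplasmic libraries (log2 difference 2.00 ± 0.38, adjusted p = 0.00245). HSP90B1, the ER form of HSP90, read 7533, 8124 and 8591 in the nuclear libraries and 4650, 2155 and 3131 in the cytoplasmic libraries (log2 difference 1.36 ± 0.29, adjusted p = 0.00435). All 4 were higher in each nuclear library than in any cytoplasmic library. The 1 gene of this list on the cytoplasmic side was SDF2L1, an ER chaperone cofactor, at -1.52 ± 0.42 (adjusted p = 0.0146), with 43.6, 50.7 and 33.2 against 111, 75.3 and 217 units; without nuclear library 3 its adjusted p was 0.0565.

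Both chaperone families have a cytosolic and an ER member, and the members fell on opposite sides. HSPA8, the constitutive cytosolic HSP70, read 3451, 4745 and 4148 in the nuclear libraries and 24694, 30765 and 25421 in the cytoplasmic libraries, and HSP90AB1, the cytosolic HSP90, read 10329, 12909 and 11056 in the nuclear libraries and 51708, 70466 and 42424 in the cytoplasmic libraries. Their differences were -2.72 ± 0.22 and -2.24 ± 0.25, against 2.00 ± 0.38 for HSPA5 and 1.36 ± 0.29 for HSP90B1. These pairs were set side by side after their values were seen. They differ at the start of the coding sequence, where the ER members encode a hydrophobic signal peptide. The first 120 coding bases of the longest GENCODE 29 coding transcript (GRCh38) are shown for them and for AZGP1, LAMP1 and ENO1, with the most hydrophobic run of 11 codons in capitals where its mean Kyte-Doolittle hydropathy reaches 2.2.
HSPA5 (chr9:125234853-125241330, minus strand, log2 difference 2.00): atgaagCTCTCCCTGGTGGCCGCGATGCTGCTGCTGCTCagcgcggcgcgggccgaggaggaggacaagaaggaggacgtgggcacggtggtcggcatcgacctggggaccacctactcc
HSPA8 (chr11:123057489-123063230, minus strand, log2 difference -2.72): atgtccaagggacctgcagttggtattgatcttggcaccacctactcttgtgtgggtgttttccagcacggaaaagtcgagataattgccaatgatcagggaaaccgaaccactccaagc
HSP90B1 (chr12:103930107-103953645, plus strand, log2 difference 1.36): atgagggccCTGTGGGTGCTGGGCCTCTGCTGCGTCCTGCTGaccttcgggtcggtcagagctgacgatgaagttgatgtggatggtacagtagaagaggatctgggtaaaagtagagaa
HSP90AB1 (chr6:44246166-44253888, plus strand, log2 difference -2.24): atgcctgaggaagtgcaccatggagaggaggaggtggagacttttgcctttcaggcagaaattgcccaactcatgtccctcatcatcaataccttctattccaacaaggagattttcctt
AZGP1 (chr7:99966720-99976157, minus strand, log2 difference 3.50): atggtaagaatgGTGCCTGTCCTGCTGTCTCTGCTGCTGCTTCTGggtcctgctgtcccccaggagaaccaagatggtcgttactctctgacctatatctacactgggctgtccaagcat
LAMP1 (chr13:113297241-113323672, plus strand, log2 difference 4.53): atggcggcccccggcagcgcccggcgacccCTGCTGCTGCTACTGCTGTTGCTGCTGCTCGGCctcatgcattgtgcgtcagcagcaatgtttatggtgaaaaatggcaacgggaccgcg
ENO1 (chr1:8861000-8879250, minus strand, log2 difference -3.03): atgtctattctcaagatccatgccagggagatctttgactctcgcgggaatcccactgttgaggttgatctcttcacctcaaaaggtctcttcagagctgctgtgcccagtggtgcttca

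The capitals mark codons 3 to 13 in HSPA5, 4 to 14 in HSP90B1, 5 to 15 in AZGP1 and 11 to 21 in LAMP1. The cytosolic HSP90AB1 reached 1.71, HSPA8 1.20 and ENO1 0.77, all below the threshold. By this measure 37 of 42 genes of the secreted and ER lumen list, 44 of 67 of the membrane list and 1 of 65 ribosomal protein genes had a hydrophobic start within their first 40 codons, against 11.4% of all tested genes with a coding sequence.

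Across all tested genes, the hydrophobic start marked a shift toward the nuclear fraction. The 1080 genes with it had a median difference of 1.20, with 47.3% called nuclear and 6.76% cytoplasmic. The 8391 genes without it had a median of 0.06, with 27.8% and 31.3%. In the same-batch pairs the medians with the start were 0.78, 1.45 and 1.15, and without it 0.04, -0.02 and 0.00. Leaving out the secreted and membrane lists, 999 genes with the start still had a median of 1.17, against 0.06 over 8363. Counting hydrophobic stretches of 19 residues anywhere in the protein gave a median of -0.03 with none, 0.88 with 1, 1.24 with 2, 1.20 with 3 and 1.37 with 4 or more. These are descriptions over genes, which are not replicates.

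**Figure D4:**
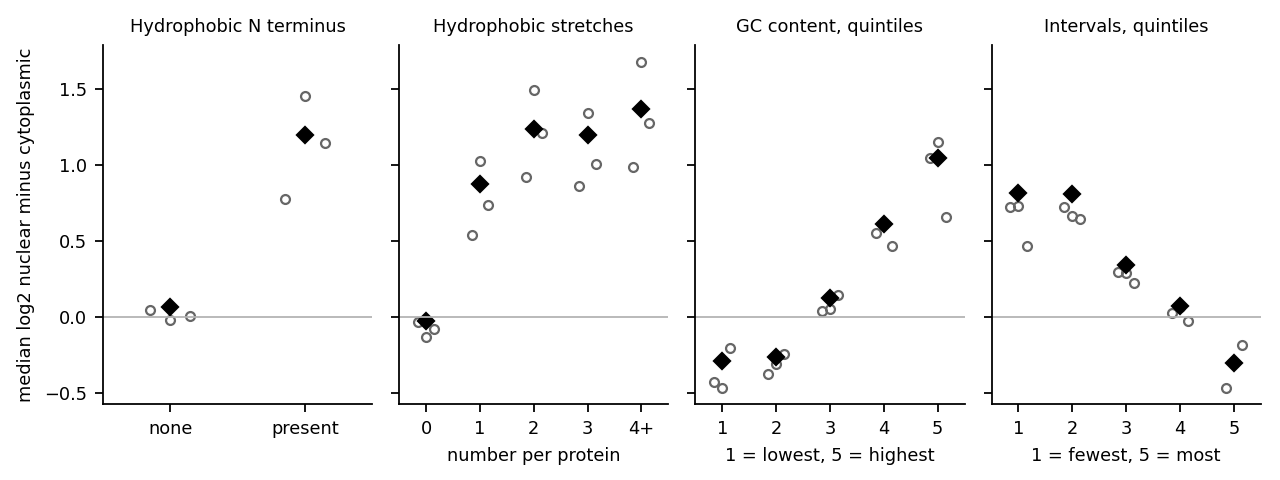
Median log2 nuclear minus cytoplasmic difference (vertical axis) of genes grouped by a hydrophobic N terminus, by the number of hydrophobic stretches, by quintiles of transcript GC content and of the number of intervals; diamonds are 3 libraries against 3 and circles same-batch pairs. Medians go from 0.06 to 1.20 with a hydrophobic N terminus and from -0.29 to 1.05 from the lowest to the highest GC quintile.

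Among membrane proteins, LAMP1, a lysosomal glycoprotein, read 50.5, 57.5 and 43.3 in the nuclear libraries and 9.85, 0 and 0 in the cytoplasmic libraries, a cytoplasmic value that rests on reads in 1 library (log2 difference 4.53 ± 0.98, adjusted p = 0.00474); it stood at 3.77 without cytoplasmic library 3 and 5.58 without cytoplasmic library 1. LRP1, a large endocytic receptor that overlaps STAT6, read 62.9, 116 and 127 in the nuclear libraries and 12.3, 15.5 and 0 in the cytoplasmic libraries (log2 difference 4.03 ± 1.01, adjusted p = 0.00924). Without cytoplasmic library 3, which is at 0, LRP1 stood at 2.61, and without cytoplasmic library 2 at 4.93. CDH1, E-cadherin of epithelial junctions, read 476, 478 and 583 in the nuclear libraries and 107, 77.5 and 122 in the cytoplasmic libraries (log2 difference 2.33 ± 0.25, adjusted p = 1.20e-04). ERBB2, the growth factor receptor HER2, read 4226, 6544 and 7546 in the nuclear libraries and 2920, 1876 and 1740 in the cytoplasmic libraries (log2 difference 1.48 ± 0.30, adjusted p = 0.00322). The fractions were separate for all 4, and ERBB2 overlaps MIEN1 and PGAP3. The 2 membrane genes on the cytoplasmic side were CD47, the "do not eat me" signal, at -1.28 ± 0.47, and SSR3, a translocon-associated subunit, at -1.09 ± 0.29. Both turned positive as CPM, at 0.18 and 0.37. The call of CD47 was lost without any of 4 libraries (nuclear 1 or 2, cytoplasmic 1 or 3; adjusted p from 0.0559 to 0.161), and that of SSR3 without nuclear library 1 (0.0546).

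Sterol and fatty acid synthesis, an ER-based pathway in part, had 11 of 30 genes called nuclear (36.7%), near the 31% of all genes, and 3 called cytoplasmic (10%, against 26.6%), with a median of 0.72. The list took 1.41% ± 0.176 of the nuclear and 0.468% ± 0.209 of the cytoplasmic values (exact permutation p = 0.1). With 1 library left out, the log2 difference of this share ran from 1.27 to 1.99. The typical gene was also nuclear on that scale: as CPM the median was 1.60 over all genes and 2.14 for this list. SREBF1, a membrane-anchored transcription factor for lipid synthesis, read 1851, 2056 and 1899 in the nuclear libraries and 267, 233 and 223 in the cytoplasmic libraries (log2 difference 3.00 ± 0.19, adjusted p = 4.28e-05). SREBF2, its counterpart for sterol genes, read 1535, 1593 and 1129 in the nuclear libraries and 286, 217 and 207 in the cytoplasmic libraries (log2 difference 2.58 ± 0.23, adjusted p = 6.21e-05). The 3 on the cytoplasmic side were the soluble enzymes ACAT2 at -2.56, PMVK at -2.38 and HMGCS1 at -1.33; HMGCS1 stood at 0.15 as CPM. FASN, the cytosolic fatty acid synthase, read 11071, 11620 and 8111 in the nuclear libraries and 16922, 17091 and 7532 in the cytoplasmic libraries and was not called (log2 difference -0.35 ± 0.35, adjusted p = 0.401). SCD, the ER-resident desaturase, read 4831, 11135 and 9847 in the nuclear libraries and 7438, 3065 and 1191 in the cytoplasmic libraries; the libraries overlapped and it was not called (log2 difference 1.43 ± 0.61, adjusted p = 0.0739). Without cytoplasmic library 1, SCD reached 2.06 with an adjusted p of 0.016, without cytoplasmic library 3 it stood at 0.64, and without cytoplasmic library 3, FASN reached -0.87 with 0.0128.

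The largest nuclear excess, among called genes with separate fractions and a nuclear mean of at least 100 units, belonged to genes nearly unread in the cytoplasm. RAB26, a small GTPase of secretory granules (GRCh38, chr16:2140803-2154165), read 320.1, 241 and 197 in the nuclear libraries and 3.69, 8.86 and 4.01 in the cytoplasmic libraries, a 45.8-fold difference (log2 difference 5.34 ± 0.44, adjusted p = 4.58e-05). ZNF302, a zinc finger protein (chr19:34677639-34686397), read 264, 246 and 327 in the nuclear libraries and 11.1, 6.64 and 5.35 in the cytoplasmic libraries (log2 difference 5.05 ± 0.38, adjusted p = 4.28e-05). ABCD4, a lysosomal transporter for vitamin B12, read 99.7, 133 and 105 in the nuclear libraries and 3.69, 2.21 and 0 in the cytoplasmic libraries (log2 difference 5.51 ± 0.68, adjusted p = 2.67e-04). ZBTB48, a telomere-binding zinc finger protein, read 149.8, 159 and 158 in the nuclear libraries and 6.16, 15.5 and 0 in the cytoplasmic libraries, a 21.6-fold difference. Of the other named genes, GPR108 stood at 6.35, REEP4 at 5.98, RTKN at 5.54, SNHG25 at 5.18, TRAIP at 5.11, MCOLN1 at 5.09 and P2RY6 at 5.06. GPR108 overlaps C3, and MCOLN1 overlaps PNPLA6. In these 11 genes the nuclear values rest on 634 to 2031 reads and the cytoplasmic values on 4 to 63, so the size of the fold is set by few reads. All 11 stayed called with any 1 library left out, but 9 moved by over 1.5 times. Without cytoplasmic library 3 the differences were 5.56 for GPR108, 4.09 for RTKN, 4.70 for ABCD4, 3.41 for SNHG25, 3.54 for TRAIP, 4.07 for MCOLN1 and 3.72 for ZBTB48. Without cytoplasmic library 2 they were 7.93 for GPR108, 5.05 for REEP4, 6.31 for RTKN, 3.57 for P2RY6 and 6.06 for ZBTB48. Without cytoplasmic library 1 they were 5.69 for GPR108, 6.89 for REEP4, 6.20 for RTKN, 6.49 for SNHG25, 6.29 for TRAIP and 6.62 for P2RY6. In total, 42 tested genes had 0 cytoplasmic reads in all 3 libraries and are given no fold.

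Genes known for detained introns leaned to the nucleus, with 20 of 27 called nuclear, 3 cytoplasmic and a median of 1.31. RBM5, a splicing regulator that overlaps RBM6, read 631, 661 and 633 in the nuclear libraries and 93.6, 99.7 and 34.8 in the cytoplasmic libraries (log2 difference 3.20 ± 0.39, adjusted p = 2.38e-04). CLK1, a kinase of SR proteins, read 700.0, 815 and 998 in the nuclear libraries and 299, 549 and 332 in the cytoplasmic libraries (log2 difference 1.13 ± 0.28, adjusted p = 0.00848). CLK4, its relative, read 192, 223 and 209.9 in the nuclear libraries and 57.9, 124 and 80.3 in the cytoplasmic libraries (log2 difference 1.31 ± 0.31, adjusted p = 0.00746). DCAF16 and AHSA2P stood at 4.38 and 3.95, each with 0 units in 1 cytoplasmic library; with 1 library left out they ranged from 3.07 (without cytoplasmic 2) to 5.43 (without cytoplasmic 1) and from 2.54 (without cytoplasmic 3) to 4.65 (without cytoplasmic 1). RBM5 stood at 2.60 without cytoplasmic library 3. Nuclear and cytoplasmic libraries did not overlap in any of these 5. The 3 on the cytoplasmic side were RBM39 at -1.42, NXF1 at -1.03 and TIAL1 at -0.91, which turned positive as CPM at 0.06, 0.44 and 0.56. Without nuclear library 1 the adjusted p of TIAL1 was 0.0582.

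Nuclear speckle and SR protein genes were split, with 12 of 43 called nuclear (27.9%, near the 31% of all genes). The cytoplasm was higher in 19 (44.2%, against 26.6%), and the median was -0.43. The shares of values taken by these genes, 1.22% ± 0.0487 and 1.17% ± 0.0943, differed by less than the spread (exact permutation p = 0.5). SRSF3, an SR protein and export adaptor, read 1600, 2287 and 2431 in the nuclear libraries and 16519, 27766 and 36692 in the cytoplasmic libraries (log2 difference -3.63 ± 0.32, adjusted p = 6.21e-05). SRSF1 differed by -2.89. LUC7L, a U1-associated splicing factor, read 682, 639 and 569 in the nuclear libraries and 99.7, 111 and 162 in the cytoplasmic libraries (log2 difference 2.36 ± 0.25, adjusted p = 1.14e-04). CCNL1, a cyclin of speckles, differed by 2.06. SON and SRRM2 encode the scaffold proteins of speckles. SON read 786, 833 and 879 in the nuclear libraries and 2663, 2616 and 2016 in the cytoplasmic libraries (log2 difference -1.54 ± 0.20, adjusted p = 3.49e-04), and stood at -0.06 as CPM; it overlaps GART and DONSON. SRRM2 read 1050, 1071 and 992 in the nuclear libraries and 1033, 682 and 646 in the cytoplasmic libraries and was not called (log2 difference 0.43 ± 0.23, adjusted p = 0.139), while without cytoplasmic library 1 it reached 0.62 with an adjusted p of 0.0332.

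The mRNAs of the export machinery were themselves mixed, with 20 of 40 called cytoplasmic (50%) and 9 nuclear (22.5%). All genes tested stood at 26.6% and 31%. The median of the list was -0.60, and 0.82 as CPM. NXF1, the main mRNA export receptor, read 679, 819 and 792 in the nuclear libraries and 1354, 1391 and 2012 in the cytoplasmic libraries (log2 difference -1.03 ± 0.23, adjusted p = 0.00473). SEM1, a small acidic subunit of an export complex and of the proteasome, read 49.6, 66.8 and 86.6 in the nuclear libraries and 1098, 1364 and 2667 in the cytoplasmic libraries (log2 difference -4.57 ± 0.36, adjusted p = 4.49e-05). MAGOH, of the exon junction complex, differed by -3.34. THOC6, of the THO complex, read 244, 181 and 160.3 in the nuclear libraries and 17.2, 31.0 and 13.4 in the cytoplasmic libraries (log2 difference 3.25 ± 0.39, adjusted p = 2.27e-04); it overlaps HCFC1R1 and BICDL2. Of 22 hnRNP genes, 15 were cytoplasmic and 2 nuclear (median -1.89). HNRNPK read 1937, 2677 and 3000 in the nuclear libraries and 17745, 20112 and 21241 in the cytoplasmic libraries (log2 difference -2.98 ± 0.23, adjusted p = 4.49e-05), and HNRNPL was on the nuclear side at 0.93, with an adjusted p of 0.0547 without nuclear library 1.

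Long noncoding RNAs include well-known residents of the nucleus, though no interval existed for MALAT1 or NEAT1. Of 494 lincRNA genes, 203 were abundant enough to test. The nucleus was higher in 79 of them (38.9%, against 31% of all genes tested). The cytoplasm was higher in 14 (6.90%, against 26.6%), and the median was 1.49. Antisense genes had 145 of 341 nuclear (42.5%) and 18 cytoplasmic (5.28%), with a median of 1.59, but 290 of the 341 overlap a coding gene. A list of noncoding RNAs was chosen as nuclear, and the residence of its members was not checked. Of its 13 tested RNAs, 5 were called nuclear (38.5%) and 3 cytoplasmic (23.1%), near the 31% and 26.6% of all genes. The 5 were HOTAIR at 2.27, TUG1 at 1.48, DLEU2 at 1.48, PVT1 at 1.38 and FIRRE at 0.90. The call of FIRRE was lost with the replicate block (adjusted p = 0.0583, limma) and without any library but cytoplasmic 3, and HOTAIR stood at 1.67 without cytoplasmic library 3. TUG1 read 258, 257 and 237 in the nuclear libraries and 123, 73.1 and 78.9 in the cytoplasmic libraries (log2 difference 1.48 ± 0.27, adjusted p = 0.00197). PVT1 read 586, 384 and 357 in the nuclear libraries and 187, 124 and 194 in the cytoplasmic libraries (log2 difference 1.38 ± 0.28, adjusted p = 0.00357). HOTAIR overlaps HOXC11, and DLEU2 overlaps TRIM13 and KCNRG. The 3 called cytoplasmic were DANCR at -2.67, OIP5-AS1 at -1.62 and SNHG14 at -1.39. OIP5-AS1 overlaps OIP5, and SNHG14 overlaps SNRPN and UBE3A. DANCR read 252, 189 and 235 in the nuclear libraries and 1168, 1517 and 1656 in the cytoplasmic libraries, without overlap; SNHG14 stood at 0.08 as CPM.

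Host genes of small nucleolar RNAs, whose introns carry the functional RNA, had 11 of 23 called nuclear (47.8%, against 31% of all genes). The cytoplasm was higher in 4 (17.4%, against 26.6%), and the median was 0.64. In the same-batch pairs the medians were 1.15, 0.83 and -0.04, against 0.24, 0.25 and 0.20 over all genes. Pair 3 thus showed no lean of these hosts to the nucleus. SNHG11 read 125, 119.9 and 143 in the nuclear libraries and 6.16, 4.43 and 5.35 in the cytoplasmic libraries (log2 difference 4.37 ± 0.41, adjusted p = 6.87e-05), and SNHG25 read 367, 375 and 318 in the nuclear libraries and 64.0, 13.3 and 0 in the cytoplasmic libraries (log2 difference 5.18 ± 1.24, adjusted p = 0.00759). The 4 on the cytoplasmic side were DANCR, the ribosome-bound scaffold RACK1 at -1.87, SNHG14 with its overlaps named above and the helicase EIF4A2 at -1.27. EIF4A2 lost its call without nuclear 1 or 3 or cytoplasmic 2 (adjusted p from 0.0611 to 0.0890) and stood at 0.19 as CPM. GAS5, a host with a pyrimidine-rich start, read 682, 734 and 682 in the nuclear libraries and 672, 1136 and 1331 in the cytoplasmic libraries and was not called (log2 difference -0.52 ± 0.27, adjusted p = 0.128). It reached -0.84 with an adjusted p of 0.0131 without cytoplasmic library 1, and stood at 0.94 as CPM.

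Transcription factors of luminal breast cells fell on both sides about as often as all genes, with 6 of 21 called nuclear and 6 cytoplasmic (28.6% each, against 31% and 26.6%) and a median of -0.14. SPDEF, an ETS factor of luminal cells, read 1603, 1701 and 1467 in the nuclear libraries and 241, 286 and 118 in the cytoplasmic libraries (log2 difference 2.97 ± 0.32, adjusted p = 1.42e-04). CREB3L4, an ER-anchored factor, read 941, 1057 and 1205 in the nuclear libraries and 91.1, 59.8 and 69.6 in the cytoplasmic libraries (log2 difference 3.86 ± 0.24, adjusted p = 4.28e-05); it overlaps SLC39A1 and JTB. GATA3 read 2465, 2525 and 2349 in the nuclear libraries and 5385, 5247 and 6817 in the cytoplasmic libraries (log2 difference -1.24 ± 0.20, adjusted p = 0.00109), and stood at 0.23 as CPM. KLF5 differed by -2.36. FOXA1, the pioneer factor of these cells, read 384, 424 and 453 in the nuclear libraries and 739.9, 576 and 529.7 in the cytoplasmic libraries and was not called (log2 difference -0.54 ± 0.21, adjusted p = 0.0556); it overlaps TTC6, and without cytoplasmic library 3 it reached -0.76 with an adjusted p of 0.00872. The list took 0.641% ± 0.0428 of the nuclear and 0.267% ± 0.0426 of the cytoplasmic values, the opposite direction to its median. As CPM, which like a share is set by the library total, its median was 1.33, against 1.60 over all genes.

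MYC read 94.6, 291 and 299 in the nuclear libraries and 289, 188 and 338 in the cytoplasmic libraries, with overlap between the fractions (log2 difference -0.39 ± 0.46, adjusted p = 0.484). Without nuclear library 1, the lowest, its difference was 0.17. The same library was low for other immediate early genes. FOS read 7.27, 239.9 and 286 in the nuclear libraries and 27.1, 35.4 and 32.1 in the cytoplasmic libraries and was not called (log2 difference 1.36 ± 1.18, adjusted p = 0.345), and without nuclear library 1 it reached 3.03 with an adjusted p of 0.000764. CCN1, a secreted matrix protein, read 179, 329 and 374 in the nuclear libraries and 113, 68.7 and 60.2 in the cytoplasmic libraries and was the 1 gene of the list called nuclear (log2 difference 1.84 ± 0.36, adjusted p = 0.00301). Of 28 immediate early genes, 12 were called cytoplasmic (median -0.72; 0.74 as CPM). KLF2 read 151, 198 and 236 in the nuclear libraries and 896, 1278 and 2178 in the cytoplasmic libraries (log2 difference -2.82 ± 0.34, adjusted p = 2.28e-04), KLF4 differed by -2.11, and the phosphatase DUSP2 read 35.1, 24.7 and 10.1 in the nuclear libraries and 182, 135 and 148 in the cytoplasmic libraries (log2 difference -2.83 ± 0.46, adjusted p = 0.00111). The part of the batch in the low nuclear library was not tested.

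Zinc finger repressor genes, a large family of low abundance, had 78 of 269 called nuclear, 27 cytoplasmic and a median of 0.50, close to the 0.32 of all genes. Their nuclear share was near the 31% of all genes, but their cytoplasmic share was lower, at 10% against 26.6%. With the highest interval per gene their median was 1.44, against 0.60 over all genes. ZNF862 stood at 4.11 and ZNF706 at -3.19; without cytoplasmic library 2 ZNF862 stood at 2.82. Chromatin modifiers had 23 of 64 cytoplasmic and 9 nuclear (median -0.42; 1.04 as CPM), from HDAC2, a histone deacetylase, at -3.03 to KAT2A, a histone acetyltransferase, at 4.30, or 3.37 without cytoplasmic library 1. Replication histone mRNAs normally lack a poly(A) tail. Of 11 histone genes tested, 4 were nuclear (36.4%) and 2 cytoplasmic (18.2%), near the 31% and 26.6% of all genes for so short a list. They were H2AC6 at 2.70, H2BC15 at 2.11, H4C8 at 1.18, H3-3A at 0.68, H2BC12 at -1.27 and the variant H2AZ2 at -2.83. H2BC15 overlaps HIST1H2AK and HIST1H2AL. With the replicate block the adjusted p of H4C8 was 0.0642 and that of H3-3A 0.0757; H4C8 also lost its call without nuclear 1, 2 or 3 or cytoplasmic 1 and H3-3A without any library but cytoplasmic 2. H2BC12 stood at 0.18 as CPM.

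Properties of the transcript also went with the difference. Genes in the lowest to highest quintile of transcript GC content had medians of -0.29, -0.26, 0.12, 0.61 and 1.05, and Spearman's rho over 9471 genes was 0.26. The share called nuclear went from 18.1% to 46.1% and the share called cytoplasmic from 37.8% to 17.9%. The hydrophobic start and GC content each went with the difference within the other: in the lowest GC quintile the medians were 0.75 with the start and -0.41 without it, and in the highest quintile 1.76 and 0.94. Genes with few intervals were more nuclear, with medians from 0.82 in the lowest to -0.31 in the highest quintile (rho -0.20 over 10494 genes). Gene span showed a weaker fall, from 0.64 to -0.01 (rho -0.11). Transcript length did not order the genes, with rho 0.01. Genes share libraries and composition, so these values are descriptions.

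The numbered intervals of a gene appear to follow the gaps between its exons: in 4912 genes they end at the count of gaps between merged GENCODE 29 exons, and the table holds 11 of 1117 protein-coding genes without such a gap and 10862 of 18834 with one. In the nucleus longer gaps held more T-to-C reads than shorter gaps of the same gene. The median within-gene Spearman correlation of value with gap length was 0.39, 0.30 and 0.30 in the nuclear libraries over about 1810 genes, and 0.04, -0.01 and 0.01 in the cytoplasmic libraries. Over quintiles of gap length, from a median of 142 to 7664 bases, the median difference went from -0.64 through -0.56, -0.24 and 0.13 to 0.52. In 2286 genes with gaps of both kinds, gaps of at least 2000 bases held 1.27 log2 units more than gaps under 500 bases in the nucleus, and 0.22 more in the cytoplasm. Genes called nuclear and genes called cytoplasmic both showed it, with nuclear medians of 1.68 over 733 genes and 0.99 over 750.

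The gene lists differed in this respect. In 66 zinc finger genes the nuclear excess of long over short gaps was 1.66, in 11 secreted and ER lumen genes 0.66 and in 13 membrane protein genes 0.07. Other small lists were also low, at 0.18 in 6 glycolysis genes and -0.02 in 7 hnRNP genes. The larger set of 220 genes with a hydrophobic start stood at 1.19, near the 1.27 of 2003 genes without it. Among nuclear calls the values were 1.60 over 121 genes with the start and 1.69 over 586 without. HSP90B1 was higher in the nucleus along the whole gene: in 15 of its 16 intervals the nuclear mean was 1.56 to 2.92 times the cytoplasmic mean, and in the last, which held few reads, 12.3 times. Neighbouring intervals often held nearly the same value, within 5% in 24.9% of 1648 cytoplasmic and 17.4% of nuclear pairs. In ACTB, intervals 2 and 3 held 43456 ± 5869 and 43453 ± 5868 units in the cytoplasm (SD, n = 3), a difference far below their spread. Whether spliced reads or reads within introns fill an interval is not given in the sources used here.

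**Figure D5:**
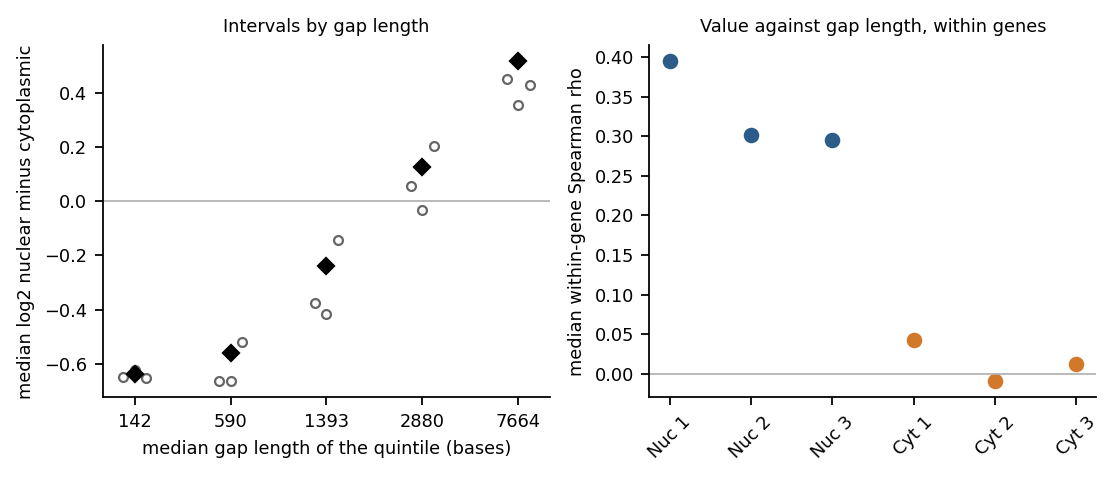
Left, median log2 nuclear minus cytoplasmic difference (vertical axis) of intervals in quintiles of gap length (horizontal axis, median of the quintile in bases), with diamonds for 3 libraries against 3 and circles for same-batch pairs; right, median within-gene Spearman correlation of value and gap length in each library. The difference goes from -0.64 to 0.52, and the nuclear libraries lie between 0.30 and 0.39 while the cytoplasmic ones lie near 0.

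The same contrast after 3 h of JQ1-VHL, in 6 other libraries of the same 3 batches, ordered the genes alike. There 2584 of 8797 genes (29.4%) were called nuclear and 2350 (26.7%) cytoplasmic. Over 8664 genes tested in both, Pearson's r of the differences was 0.84 and 84.1% had the same sign, as a description across genes. Of 2522 DMSO nuclear calls tested there, 1727 were called the same way and 5 the opposite way; of 2744 cytoplasmic calls, 2067 and 27. RPS12 differed by -4.25 there and -5.12 in DMSO, ACTB by -2.51 and -3.55, AZGP1 by 3.06 and 3.50, and SREBF1 by 3.20 and 3.00. SPDEF stood at 0.68 against 2.97 in DMSO, HSPA5 at 3.11 against 2.00 and CCN1 at 3.96 against 1.84. The JQ1-VHL pairs were 1.14, 1.78 and -0.88 for SPDEF, 2.52, 2.62 and 4.20 for HSPA5 and 3.42, 3.34 and 5.13 for CCN1. SPDEF was not called under JQ1-VHL (adjusted p = 0.304, limma). The median of the secreted list was 2.24 against 1.51, of membrane proteins 2.41 against 1.55 and of ribosomal proteins -2.22 against -2.72. The JQ1-VHL pairs were 1.41, 1.45 and 3.44 for secreted genes and 1.77, 1.85 and 3.35 for membrane genes. In DMSO they were 1.05, 1.91 and 1.45, and 1.30, 1.87 and 1.57. The higher medians under JQ1-VHL thus rest largely on pair 3. Its nuclear library held 1.58 M reads, with 30.5% of intervals at 0. Differences between the treatments were not tested here.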

How the data were processed

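Per the labels' protocols, poly(A)-selected RNA treated with iodoacetamide was sequenced in pairs of 150 bp reads. The builds hg19 (GRCh37) and dm3 and the tools HISAT2, HTSeq, DESeq2, Trimmomatic 0.39 and bcl2fastq appear without roles in the submitters' processing notes. How T-to-C reads were called and counted, and on which strand, is not given in the sources used here. The authors deposited the values as a signal, which per the table's name is T-to-C counts scaled by ERCC RNA. All values were whole multiples of 1 read within 0.01, so whole reads were recovered; a read was worth 0.470 to 2.75 units in the 6 libraries. Without molecular identifiers, PCR copies of a molecule count as separate reads.

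The 98665 intervals were summed per Ensembl ID; 12512 of 12755 IDs had a symbol, and 12546 were found in GENCODE 29 (GRCh38), which is not the files' build, so its coordinates describe genes only. A fragment that falls in more than 1 interval is summed repeatedly. Values were divided by median-of-ratios factors and tested as log2(value + 1) by limma 3.58.1 (R 4.3.3) with trend and robust eBayes, 3 libraries against 3, no block, two-sided. The design assumed counts per gene. Single sums and shares were tested by exact permutation. Data were simulated for 10494 genes, with changes of 1 and of 2 on the log2 scale in 100 genes each. The test recovered 8% and 68% of them and called 0.0874% of unchanged genes. In the data 57.6% of genes were called, which loosens the adjusted threshold, so these rates do not carry over to this comparison. Batch numbers, from the labels, pair the libraries; same-batch deviations correlated by 0.08, 0.00 and -0.00. Alternatives were other scales, the block, edgeR 4.0.16, DESeq2 1.42.0, pseudocounts of 0.1 and 10, other filters, the highest interval per gene and each library left out. Named genes were the 12 highest and 12 lowest called, separate and of one sign in all pairs with a mean of at least 100 in the higher fraction, the 3 highest and lowest of each list, the 10 of highest mean in each fraction and a few of known interest; small list exceptions were added. Hydrophobic stretches used windows of 11 residues (mean 2.2, first 40 residues) or 19 residues (mean 1.9). Coding sequences matched 10758 genes and RefSeq promoters 9420. Members and lists were chosen with earlier results of these data known. Some genes are not reported here.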

Additional observations from a re-analysis of the deposited data

Results flagged for a closer look

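Of the genes and lists given with a difference in the text, those are listed here in which every same-batch pair moved one way in DMSO and every pair moved the other way under JQ1-VHL; the difference between treatments was not tested. DUSP2, an immediate early phosphatase, differed by -2.83 in DMSO (pairs -2.34, -2.40 and -3.75) and by 0.72 under JQ1-VHL (pairs 0.14, 0.20 and 1.81). H2BC12, a histone gene, differed by -1.27 in DMSO (pairs -1.20, -1.21 and -1.41) and by 0.58 under JQ1-VHL (pairs 0.57, 0.48 and 0.68). The median of 20 immediate early genes tested in both was -0.83 in DMSO (pairs -1.63, -0.86 and -0.40) and 0.69 under JQ1-VHL (pairs 0.93, 1.03 and 0.66). The median of 59 chromatin modifier genes was -0.44 in DMSO (pairs -0.51, -0.58 and -0.29) and 0.11 under JQ1-VHL, where all 3 pairs were close to 0 at 0.04, 0.04 and 0.01.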

How the results depend on the processing

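Calls were 3250 nuclear and 2792 cytoplasmic. On the ERCC scale they were 610 and 69, with the replicate block on the ERCC scale (chosen after seeing the data) 810 and 60, and as CPM 7109 and 921. With the batch as a replicate block on the rescaled values they were 3147 and 2709, and of 133 genes given with a difference the block ended the calls of RPL9, FIRRE, H4C8 and H3-3A (adjusted p from 0.0558 to 0.0757) and changed no other. Leaving out 1 library gave 2181 to 3521 nuclear and 2335 to 3228 cytoplasmic calls. The other settings stayed within 1.5 times, edgeR at 3156 and 2846 and DESeq2 at 3349 and 3012. Of 126 called genes, 83 lost their call on the ERCC scale. Signs reversed as CPM for CD47 (0.18), SSR3 (0.37), HMGCS1 (0.15), FASN (1.12), GATA3 (0.23), FOXA1 (0.93), MYC (1.06), RBM39 (0.0566), NXF1 (0.44), TIAL1 (0.56), GAS5 (0.94), EIF4A2 (0.19), H2BC12 (0.18) and SNHG14 (0.0810). FASN also reversed with a mean of at least 100 (0.0193) and, at 0.0048, on the ERCC scale with and without the block. With the highest interval per gene FOXA1 (0.57), MYC (0.21) and GAS5 (0.0470) reversed, and MYC ranged from -0.67 to 0.17 with 1 library left out. Relative to all genes, the zinc finger median reversed without a filter (-0.10), and that of luminal transcription factors with a mean of at least 100 (0.31) and with the highest interval (0.14). With the highest interval, log2 shares moved for ribosomal proteins (-2.14), mitochondrial ribosome (-0.36), proteasome (-0.64), cytoskeleton (-1.52), zinc fingers (1.74), detained introns (1.59), export (0.14), nuclear noncoding RNAs (1.31), snoRNA hosts (1.65), chromatin modifiers (0.21) and luminal markers (0.16), without a change of direction. So did the span from the lowest to the highest quintile of interval number (-1.79) and gene span (-1.1), and the pyrimidine start (-0.75). The log2 difference of summed new RNA ranged from -2.05 to -0.36 with 1 library left out. The cause was not tested. The differences of the genes of highest nuclear excess rest on few cytoplasmic reads.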
